A study of Mus musculus with 16 samples.

Results

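The genes described here were 47 genes of blood and lymph vessels, out of 20832 genes named on a mouse expression array. They were chosen by name for their known roles, and each gene was read from the probe with the highest mean signal over all arrays. All 47 were found on the array. Of these, 8 code for angiogenic factors, 19 for endothelial surface, junction and receptor proteins, 5 for endothelial transcription factors, 6 for Notch and ephrin proteins, 4 mark mural cells and 5 mark lymphatic vessels.

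RNA came from homogenates of dorsal skin wounds of female mice, harvested together with the intact skin around them, and was measured on 16 one-colour arrays in 8 groups of 2 arrays, which the design text calls biological replicates. WT mice were untreated C57BL/6J animals of 10 to 12 weeks. The db/db mice, of 10 weeks, were C57BLKS/J animals that carry the db mutation of the leptin receptor gene on both alleles and served as the type 2 diabetes model. Their wounds were left untreated (db/db), received estradiol benzoate in sesame oil daily (db/db + estrogen) or received sesame oil alone (db/db + vehicle), and every group was sampled on labelled day 7 and on labelled day 14 after wounding. WT and db/db mice differed in strain as well as in genotype, so these cannot be told apart. The labels do not say whether an array held the RNA of 1 animal or of several.

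The labelled days did not match the days under which fold changes of db/db against WT had been printed for the same experiment. Of 40 such values recomputed from these arrays, 40 were met to within 1% on the opposite labelled day and 0 on the same labelled day. Groups are therefore named by their labels, and "labelled day" does not say how long a wound had healed. The labelled days were also scanned on different days, so a difference in level between them cannot be told apart from the scan.

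Vessels grow into a healing wound when hypoxic and inflamed tissue releases factors such as vascular endothelial growth factor, which act on receptors of endothelial cells. Leading tip cells sprout under the control of Notch ligands, while pericytes and other mural cells settle on the new tube through platelet-derived growth factor signals. Lymphatic vessels carry their own receptor and transcription factor and drain fluid and immune cells, and most of the new vessels of granulation tissue regress as the wound matures.

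A level is given as relative signal, the processed signal of the probe divided by the 75th percentile of its array, and can be compared between arrays but not between genes. Of the 47 genes, 46 were well above background on all 16 arrays. Prox1 was so on 3 arrays. Changes are log2 fold changes ± SE from limma, fitted on all arrays and all probes, with 2 arrays in each group. A gene is said to have risen or fallen where the unadjusted limma p was below 0.05 and the fold change above 2, the thresholds that the study names. Adjusted p-values are Benjamini-Hochberg values over all probes tested. An exact permutation of 2 arrays against 2 could not give a two-sided p below 0.333, so the p-values rest on limma's pooled spread. In these bulk samples fewer vessel cells and less RNA per vessel cell cannot be told apart.

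The 16 arrays had 75th percentiles between 1091 and 2548 intensity units, 70.1 to 79.0% of their probes were well above background and 0 spots were saturated. Keratinocyte markers (10 of 10) and fibroblast markers (8 of 8) were well above background on all 16 arrays. The db/db arrays of labelled day 7 differed between themselves in vessel genes. Averaged over the 24 endothelial genes and set against the mean of all arrays, the log2 level was 0.11 on replicate 1 and -0.45 on replicate 2. WT on labelled day 14 came next, with 0.20 and 0.53.

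In db/db against WT on labelled day 7, 7 of the 46 genes tested passed, which was 15.2% of them beside 14.2% of the 16901 genes tested. Of these 7, 2 were higher and 5 lower, beside 6.3% and 7.92% of all genes. With estrogen against db/db 8 of 47 passed (17.0% beside 10.9%), 3 higher and 5 lower beside 5.61% and 5.32% of all genes. With vehicle against db/db 4 of 46 passed (8.70% beside 5.64%), 3 higher and 1 lower beside 3.13% and 2.51%. With estrogen against vehicle 7 of 47 passed (14.9% beside 9.6%), 1 higher and 6 lower beside 4.98% and 4.62%. The share in db/db against WT was near that of all genes. The higher counts of both estrogen comparisons include Prox1, which was tested only because it was above background on the estrogen arrays.

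In db/db against WT on labelled day 14, 3 of 46 passed, 6.52% beside 12.8% of all genes tested, 2 higher and 1 lower beside 2.79% and 9.99%. With estrogen against db/db 2 of 46 passed (4.35% beside 4.12%), both lower, beside 2.41% higher and 1.71% lower of all genes. With vehicle against db/db 7 of 46 passed (15.2% beside 8.08%), 1 higher and 6 lower beside 5.28% and 2.8%. With estrogen against vehicle 0 of 46 passed by limma and 2 had an unadjusted p below 0.05, beside 1.07% of all genes that passed, 0.581% higher and 0.491% lower.

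By an adjusted limma p below 0.05 with no limit on the fold, 9, 5, 0 and 5 vessel genes passed in the 4 comparisons of labelled day 7, beside 16.3%, 8.0%, 0.319% and 5.01% of all genes. The counts of labelled day 14 were 5, 0, 0 and 0, beside 16.9%, 0.201%, 0.424% and 0.0%. Whether a change differed between the labelled days was tested as an interaction, and 5, 6, 3 and 5 vessel genes passed beside 6.28%, 6.75%, 2.44% and 7.03% of all genes. After adjustment 0 vessel genes passed in each, beside 0.403%, 0.209%, 0.0058% and 0.145%.

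**Figure D1:**
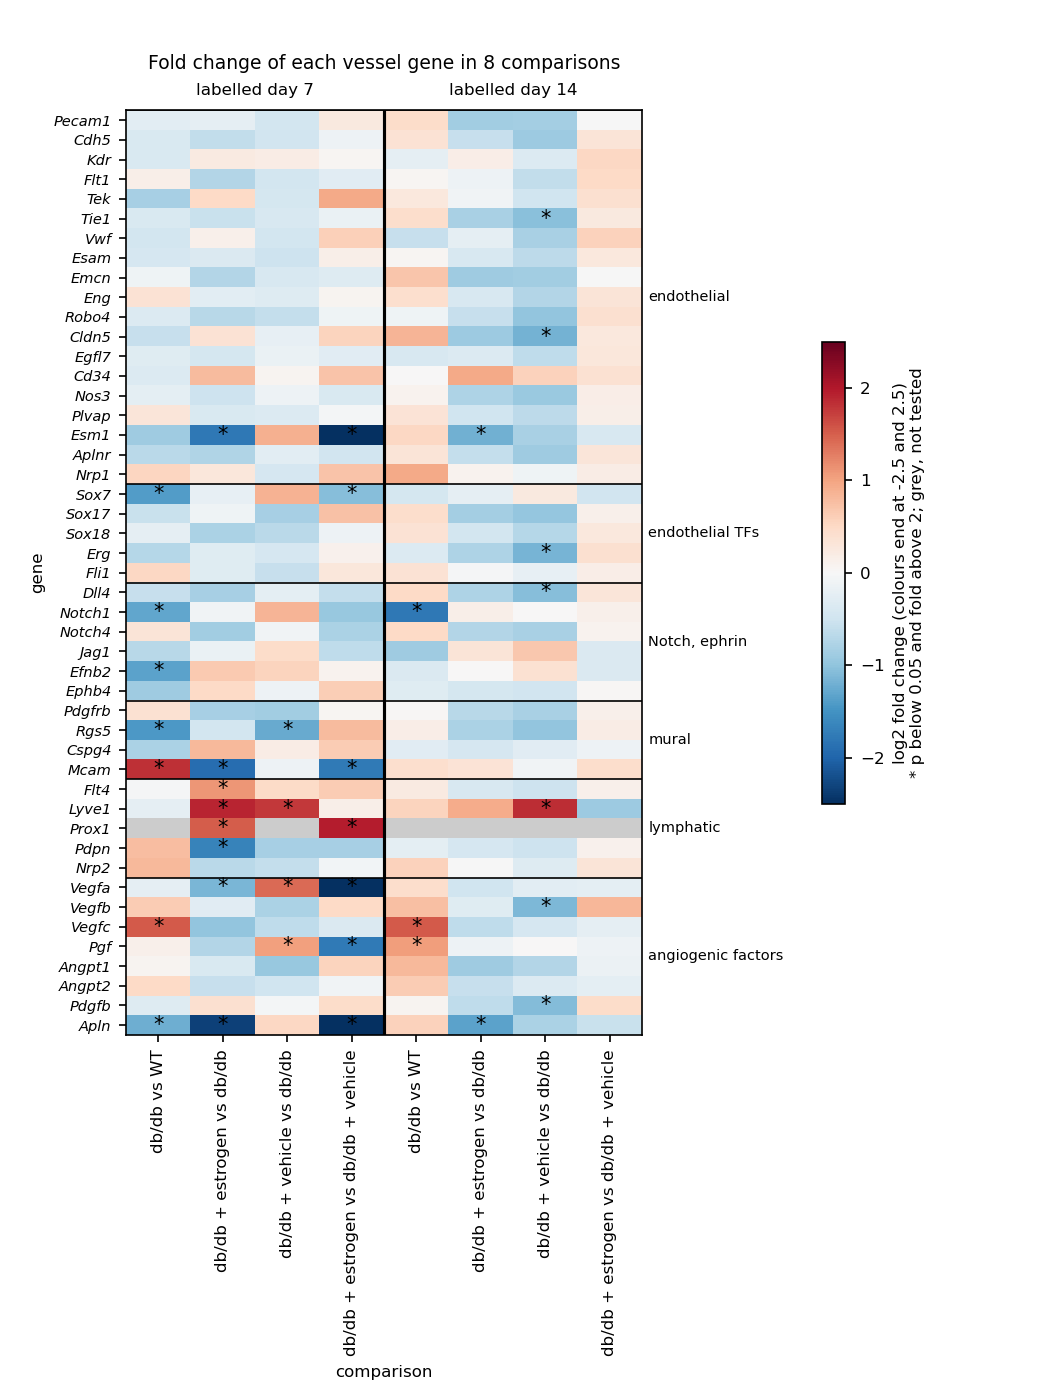
Log2 fold change of each of the 47 genes (rows, grouped by role) in 8 comparisons (columns, 4 for each labelled day), with red for higher and blue for lower in the group named at the start. Stars mark an unadjusted p below 0.05 with a fold change above 2, and grey marks comparisons in which Prox1 was not tested. The strongest blue cells were those of Apln, Esm1 and Vegfa in estrogen against vehicle on labelled day 7.

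The largest change among the 47 genes was that of an angiogenic factor, Apln. The wounds with estrogen had less Vegfa, Pgf and Apln than the wounds with vehicle on labelled day 7, by 5.85-fold, 3.38-fold and 7.17-fold. The wounds of untreated db/db mice had 2.91-fold more Vegfc than WT wounds on labelled day 7 and 2.88-fold more on labelled day 14. Vegfb, Angpt1, Angpt2 and Pdgfb made up the rest of this list.

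Vegfa codes for the main growth factor of blood vessel endothelium. Its relative signal on labelled day 7 was 1.92 and 3.09 on the WT arrays, 1.92 and 2.26 on the db/db arrays, 0.840 and 1.07 with estrogen and 7.10 and 4.34 with vehicle. Both estrogen arrays lay below, and both vehicle arrays above, every other array of that day. Vegfa fell with estrogen against db/db (-1.14 ± 0.34, limma adjusted p = 0.077) and against vehicle (-2.55 ± 0.34, limma adjusted p = 0.0057), and it rose with vehicle against db/db (1.41 ± 0.34, limma adjusted p = 0.10). The 8 arrays of labelled day 14 ranged from 1.67 to 3.65, and no comparison passed. The fall against db/db was -0.96 without replicate 1 of estrogen and did not pass there, while the other changes passed with any array left out. A second, dimmer Vegfa probe disagreed in 2 comparisons of labelled day 7: it gave -0.74 with estrogen against db/db, which did not pass, and -1.01 in db/db against WT, which did, where the brighter probe gave -0.23.

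Pgf, which codes for placental growth factor, a ligand of the receptor Flt1, followed a like order on labelled day 7. Its relative signal was 0.0943 and 0.110 in WT, 0.102 and 0.121 in db/db, 0.0618 and 0.0721 with estrogen and 0.233 and 0.219 with vehicle. The 4 groups did not overlap except for WT and db/db. Pgf fell with estrogen against vehicle (-1.76 ± 0.35, limma adjusted p = 0.027) and rose with vehicle against db/db (1.02 ± 0.35, limma adjusted p = 0.23). The rise with vehicle was 0.90 without replicate 1 of db/db and 0.98 without replicate 1 of vehicle, under 2-fold. The values of labelled day 14 were 0.145 and 0.145 in WT and 0.226 and 0.398 in db/db, a rise (1.05 ± 0.35, limma adjusted p = 0.060). This rise was 0.75 with slide as a block and 0.64 without replicate 2 of db/db and did not pass in either.

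Apln codes for apelin, a peptide that tip cells of sprouting vessels release. The relative signal of labelled day 7 was 0.678 and 1.22 in WT, 0.444 and 0.346 in db/db, 0.0895 and 0.0675 with estrogen and 0.716 and 0.434 with vehicle. The estrogen arrays were the lowest, db/db lay below WT without overlap, and vehicle overlapped with WT. Apln fell in db/db against WT (-1.21 ± 0.43, limma adjusted p = 0.082), with estrogen against db/db (-2.33 ± 0.43, limma adjusted p = 0.011) and with estrogen against vehicle (-2.84 ± 0.43, limma adjusted p = 0.0090). The fall against WT was -0.79 without replicate 2 of WT and did not pass there or without replicate 2 of db/db, while the falls with estrogen passed with any array left out.

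Apln on labelled day 14 was 1.59 and 0.949 in WT, 1.85 and 1.81 in db/db, 1.08 and 0.481 with estrogen and 1.00 and 1.13 with vehicle. The db/db arrays were the highest. Apln fell with estrogen against db/db (-1.34 ± 0.43, limma adjusted p = 0.30). Within the slide that held both groups the change was -0.75, and with slide as a block it was -1.09, and it did not pass with the block or without replicate 2 of estrogen (-0.75).

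Vegfc codes for the growth factor that acts on the lymphatic receptor Flt4. It was, on labelled day 7, 0.472 and 0.822 in WT and 2.36 and 1.39 in db/db, and on labelled day 14 it was 0.925 and 0.812 in WT and 2.11 and 2.96 in db/db. All 4 db/db arrays were above all 4 WT arrays. The rises were 1.54 ± 0.33 (limma adjusted p = 0.014) and 1.53 ± 0.33 (limma adjusted p = 0.011). The treated db/db wounds were above WT as well, from 0.909 to 1.41 on labelled day 7 and from 1.38 to 1.97 on labelled day 14, and none of their differences from untreated db/db passed.

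Vegfb and Pdgfb, which code for a further member of the Vegf family and for the growth factor by which endothelium draws mural cells, fell on labelled day 14 with vehicle against db/db. Vegfb was 1.45 and 1.26 in db/db and 0.570 and 0.683 with vehicle (-1.12 ± 0.29, limma adjusted p = 0.10). Pdgfb was 4.271 and 4.001 in db/db and 1.86 and 2.03 with vehicle (-1.09 ± 0.25, limma adjusted p = 0.084). Neither pair of groups overlapped, and the fall of Vegfb was -0.99 without replicate 1 of vehicle, under 2-fold. With estrogen Pdgfb was 2.89 and 2.48, also below both db/db arrays, which did not pass. Vegfb with estrogen was 0.787 and 1.54, on both sides of db/db. A dimmer Pdgfb probe gave -0.79 with vehicle against db/db on labelled day 14 and did not pass. It passed with estrogen against vehicle on labelled day 7 (1.02), where the brighter probe gave 0.45. Angpt1 and Angpt2, which code for ligands of the receptor Tek with opposing action, passed in no comparison. Over the 8 factors the median log2 change on labelled day 14 was 0.69 in db/db against WT, -0.60 with estrogen against db/db and -0.58 with vehicle against db/db, beside -0.04, 0.04 and 0.03 over all genes tested.

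**Figure D2:**
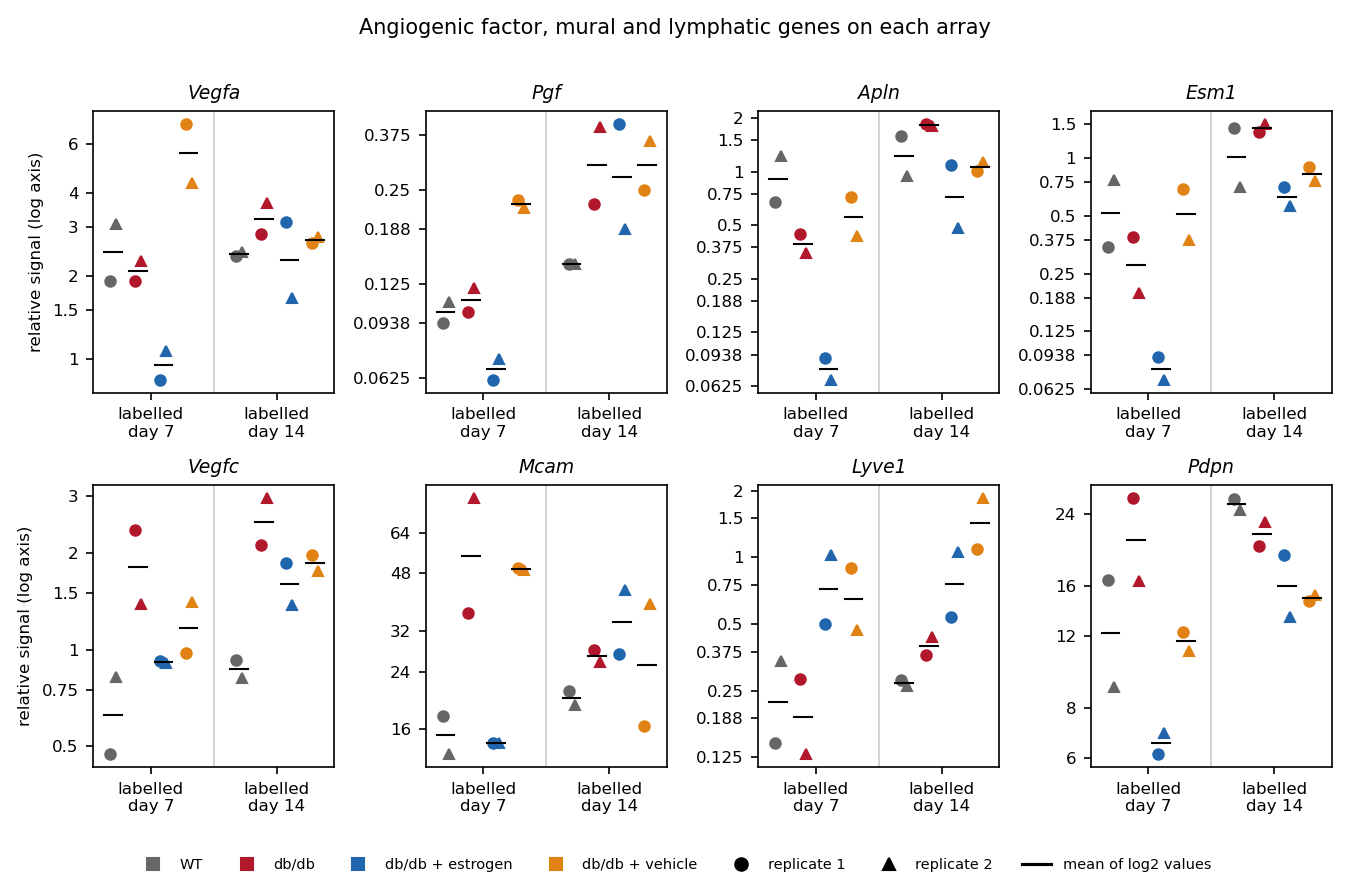
Relative signal (log axis) of Vegfa, Pgf, Apln, Esm1, Vegfc, Mcam, Lyve1 and Pdpn on each array, with circles for replicate 1, triangles for replicate 2, colours for the 4 groups and a line at the mean of each group's log2 values. On labelled day 7 the 2 estrogen arrays were the lowest for Vegfa (0.840 and 1.07), Pgf, Apln, Esm1 and Pdpn.

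Esm1, which codes for a proteoglycan that tip cells secrete, is listed here with the endothelial genes and fell in the same comparisons with estrogen as Apln. Its level on labelled day 7 was 0.344 and 0.770 in WT, 0.388 and 0.198 in db/db, 0.0916 and 0.0698 with estrogen and 0.693 and 0.375 with vehicle. Both estrogen arrays were below all others. Esm1 fell with estrogen against db/db (-1.79 ± 0.48, limma adjusted p = 0.054) and against vehicle (-2.67 ± 0.48, limma adjusted p = 0.018).

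Esm1 on labelled day 14 was 1.44 and 0.704 in WT and 1.37 and 1.51 in db/db. It was 0.705 and 0.559 with estrogen and 0.894 and 0.760 with vehicle, both below db/db without overlap. WT replicate 2 lay within the estrogen range. The change with vehicle did not pass, while Esm1 fell with estrogen against db/db (-1.19 ± 0.48, limma adjusted p = 0.44). That fall was -1.05 with slide as a block and did not pass with any 1 of the 4 arrays left out. Aplnr, the gene of the apelin receptor, ranged from 0.169 to 0.611 on labelled day 7 and from 0.525 to 1.15 on labelled day 14 and passed in no comparison.

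Vegfa, Pgf, Apln and Esm1 fell with estrogen against vehicle on labelled day 7, and the estrogen arrays were the lowest of that day. The estrogen arrays were also the lowest for other vessel genes that did not pass, such as Dll4 (0.0352 and 0.0295) and Aplnr (0.211 and 0.169). For Vegfa, Pgf, Apln and Esm1 the promoters that RefSeq lists are shown, apart from the second Pgf start. Each holds 300 bases of the GRCm38.p6 build, from 250 bases before to 50 bases after a transcription start, and is written along the gene's own strand. Capitals mark the hypoxia element ACGTG or GCGTG and the ETS motif AGGAAG on either strand.
Apln (chrX:48034804-48035103, minus strand): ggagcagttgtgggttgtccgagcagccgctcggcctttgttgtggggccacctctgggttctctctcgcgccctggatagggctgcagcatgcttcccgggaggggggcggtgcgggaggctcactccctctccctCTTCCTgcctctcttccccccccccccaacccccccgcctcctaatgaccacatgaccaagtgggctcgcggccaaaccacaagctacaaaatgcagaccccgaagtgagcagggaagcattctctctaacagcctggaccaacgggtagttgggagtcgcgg
Esm1 (chr13:113209409-113209708, plus strand): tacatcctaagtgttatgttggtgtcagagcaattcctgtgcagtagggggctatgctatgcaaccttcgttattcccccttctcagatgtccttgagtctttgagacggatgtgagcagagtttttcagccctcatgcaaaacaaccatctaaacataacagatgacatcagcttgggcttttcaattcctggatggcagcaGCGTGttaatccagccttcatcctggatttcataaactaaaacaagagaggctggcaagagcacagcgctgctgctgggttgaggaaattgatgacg
Pgf, the first listed start (chr12:85177264-85177563, minus strand): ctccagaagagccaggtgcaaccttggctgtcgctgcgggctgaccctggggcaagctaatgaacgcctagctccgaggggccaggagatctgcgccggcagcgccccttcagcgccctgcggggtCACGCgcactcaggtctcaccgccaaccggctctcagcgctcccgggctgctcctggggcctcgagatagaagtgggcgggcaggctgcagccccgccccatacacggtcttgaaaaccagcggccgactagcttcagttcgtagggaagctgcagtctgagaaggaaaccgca
Vegfa, the first listed start (chr17:46032328-46032627, minus strand): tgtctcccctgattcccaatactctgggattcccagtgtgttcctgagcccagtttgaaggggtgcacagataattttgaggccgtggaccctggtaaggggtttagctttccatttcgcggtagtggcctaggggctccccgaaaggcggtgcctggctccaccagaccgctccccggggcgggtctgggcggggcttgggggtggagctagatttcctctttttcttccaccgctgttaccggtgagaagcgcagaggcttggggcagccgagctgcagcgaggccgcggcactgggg
Vegfa, the second listed start (chr17:46025114-46025413, minus strand): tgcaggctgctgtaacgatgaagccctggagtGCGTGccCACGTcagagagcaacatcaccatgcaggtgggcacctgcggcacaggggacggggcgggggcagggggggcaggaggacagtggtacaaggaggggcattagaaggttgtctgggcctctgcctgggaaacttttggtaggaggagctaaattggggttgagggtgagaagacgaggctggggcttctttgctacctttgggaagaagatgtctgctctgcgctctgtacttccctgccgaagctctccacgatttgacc

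Esm1 and the first Pgf start held 1 hypoxia element each, the second Vegfa start held 2 and the first held 0. The window of the second Vegfa start lies downstream of the first start. Its 2 elements therefore lie inside the gene as read from the first start, not before it. The second Pgf start, which is not shown, held 0 hypoxia elements and 0 ETS motifs. Apln held 0 hypoxia elements and 1 ETS motif. RefSeq promoters were listed for 31 of the 47 genes, 38 in all. The hypoxia element was present in 44.7% of these 38 and in 43.8% of all 32851 promoters of the same length. The ETS motif AGGAAG was in 31.6% against 35.4%, and in 58.8% of the 17 promoters of endothelial genes. The motif ACAAAG or ACAATG of SOX factors was in 23.7% against 28.6%. The longer ETS motif CCGGAAGT and the estrogen response element, GGTCA and TGACC with 3 bases between them, were in 0 of the 38, and in 3.89% and 0.07% of all promoters. All motifs were searched on both strands, and no motif contains another. These letters describe the windows shown and say nothing of whether a factor was bound.

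Most endothelial genes had lower means in both treated db/db groups than in untreated db/db on both labelled days. On labelled day 7, 18 of 24 had a lower mean with estrogen (median log2 change -0.33 beside 0.04 over all genes tested) and 20 of 24 with vehicle (-0.41 beside 0.01). Esm1 fell with estrogen, and with vehicle 0 passed by limma while 4 had an unadjusted p below 0.05. With vehicle on labelled day 14, 22 of 24 had a lower mean than in db/db (median -0.77 beside 0.03 over all genes tested). Of the 24, 3 fell, beside 2.8% of all genes: Cldn5, Tie1 and Erg. With estrogen on that day, 21 of 24 had a lower mean (median -0.48 beside 0.04) and Esm1 alone fell. Compared with WT on that day, 18 of 24 had a higher mean in db/db (median 0.33 beside -0.04), and 0 passed by limma, while 3 had an unadjusted p below 0.05. The means ran the other way on labelled day 7, where 19 of 24 were lower in db/db than in WT (median -0.36 beside -0.02) and Sox7 fell. Averaged over the 24 genes, the log2 levels of that day were 0.11 and -0.45 in db/db and 0.05 and 0.24 in WT. The treated arrays ran from -0.50 to -0.39. Replicate 1 of db/db thus lay within the WT range and replicate 2 within the treated range, so each difference in this average rested on 1 db/db array.

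Pecam1, Cdh5 and Vwf code for general endothelial proteins, the adhesion molecule CD31, the cadherin of endothelial junctions and a blood clotting protein stored in endothelium. Pecam1 on labelled day 14 was 0.519 and 0.643 in WT, 0.768 and 0.821 in db/db, 0.402 and 0.476 with estrogen and 0.476 and 0.402 with vehicle. Both db/db arrays were above the other 6, and the 2 treated groups spanned the same range. Against db/db the change was -0.86 ± 0.23 with estrogen (limma adjusted p = 0.21) and -0.86 ± 0.23 with vehicle (limma adjusted p = 0.11), each under 2-fold.

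Cdh5 was 3.09 and 4.33 in WT, 4.62 and 4.85 in db/db, 2.98 and 3.40 with estrogen and 2.52 and 2.54 with vehicle on labelled day 14. The order of groups was that of Pecam1 except that vehicle was below estrogen. Against db/db the change was -0.57 ± 0.24 with estrogen (limma adjusted p = 0.47) and -0.90 ± 0.24 with vehicle (limma adjusted p = 0.11). Vwf was 4.36 and 7.71 in WT, 4.04 and 3.79 in db/db, 2.46 and 4.55 with estrogen and 2.07 and 2.40 with vehicle. Vwf was lowest with vehicle (-0.81 ± 0.30, limma adjusted p = 0.19), while the estrogen arrays lay on both sides of db/db (-0.23 ± 0.30).

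None of these 3 genes passed on labelled day 7 in any comparison. Pecam1 was 0.429 and 0.558 in WT, 0.518 and 0.320 in db/db, 0.343 and 0.353 with estrogen and 0.321 and 0.272 with vehicle. Cdh5 was 2.38 and 2.81 in WT, 2.60 and 1.5 in db/db, 1.39 and 1.19 with estrogen and 1.42 and 1.41 with vehicle. Vwf was 4.68 and 4.84 in WT, 3.34 and 3.61 in db/db, 3.34 and 4.35 with estrogen and 2.59 and 2.48 with vehicle. For Pecam1 and Cdh5 replicate 1 of db/db lay within the WT range and replicate 2 near the treated wounds. In db/db against WT the changes were -0.26 ± 0.23, -0.39 ± 0.24 and -0.45 ± 0.30. Within the slide of the first replicates Pecam1 changed by 0.27 and within that of the second by -0.80.

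**Figure D3:**
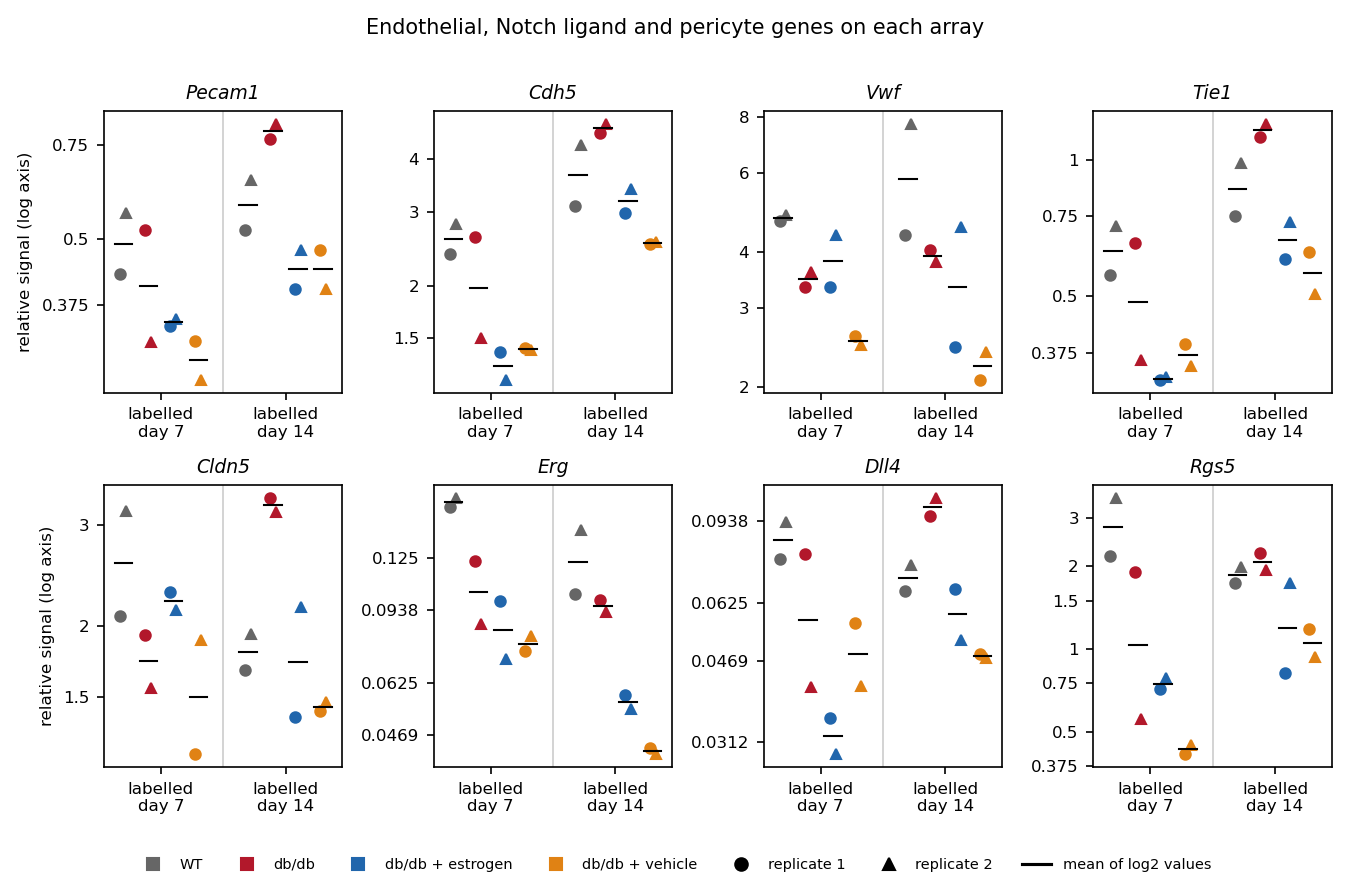
Relative signal (log axis) of Pecam1, Cdh5, Vwf, Tie1, Cldn5, Erg, Dll4 and Rgs5 on each array, with circles for replicate 1, triangles for replicate 2, colours for the 4 groups and a line at the mean of each group's log2 values. The untreated db/db arrays of labelled day 14 were above both vehicle arrays in all 8 panels, as with 0.768 and 0.821 against 0.476 and 0.402 for Pecam1.

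Cldn5, the claudin gene of endothelial tight junctions, fell on labelled day 14 with vehicle against db/db. It was 1.67 and 1.94 in WT, 3.35 and 3.17 in db/db, 1.38 and 2.16 with estrogen and 1.42 and 1.47 with vehicle, and the db/db arrays were above the rest. The fall was -1.17 ± 0.28 (limma adjusted p = 0.091). Tie1, an endothelial receptor that works with Tek, was 1.12 and 1.20 in db/db. It was 0.60 and 0.73 with estrogen, also lower without overlap, which did not pass, and 0.624 and 0.506 with vehicle. The fall with vehicle was -1.04 ± 0.26 (limma adjusted p = 0.099), just past 2-fold. This fall was -0.97 with normexp background correction, -0.89 without replicate 2 of vehicle and just under 2-fold without replicate 2 of db/db.

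Of the other receptors and surface genes, Kdr and Flt1 code for the main Vegfa receptors, Tek for the angiopoietin receptor, Eng for a coreceptor of the TGF-beta family, Robo4 for a receptor that steadies the vessel wall and Nrp1 for a Vegf coreceptor. Nos3 codes for endothelial nitric oxide synthase, Plvap for a protein of fenestrae, Esam and Emcn for further surface molecules, Egfl7 for a secreted matrix protein and Cd34 for a sialomucin also found on blood and stromal cells. None of these 12 passed in any of the 8 comparisons. Their highest relative signal was between 2.10 times (Eng) and 4.03 times (Tek) the lowest over the 16 arrays. With vehicle against db/db on labelled day 14, Flt1, Robo4, Eng, Nos3, Emcn and Plvap were lower with an unadjusted limma p below 0.05 and under 2-fold, from -0.62 for Flt1 to -0.98 for Robo4. Cd34 went the other way with estrogen, from 44.5 and 38.5 in db/db to 71.3 and 89.9 (0.95 ± 0.30, limma adjusted p = 0.29), also under 2-fold. A second probe of Nos3 did pass with vehicle, at -1.02.

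Among the transcription factors, Erg, an ETS factor of endothelium, fell on labelled day 14 with vehicle against db/db. It was 0.102 and 0.145 in WT, 0.0989 and 0.0927 in db/db, 0.0586 and 0.0541 with estrogen and 0.0436 and 0.0422 with vehicle. The 8 arrays fell in the order WT, db/db, estrogen and vehicle, with no overlap between groups. The fall with vehicle was -1.16 ± 0.22 (limma adjusted p = 0.054), and it was -0.87 with normexp correction. A second, dimmer Erg probe also passed with estrogen (-1.23).

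Sox7, a SOX factor of developing vessels, was 0.994 and 1.56 in WT, 0.458 and 0.487 in db/db, 0.462 and 0.368 with estrogen and 0.787 and 0.936 with vehicle on labelled day 7. It was lower in db/db and with estrogen than in WT and with vehicle, without overlap. Sox7 fell in db/db against WT (-1.40 ± 0.39, limma adjusted p = 0.040) and with estrogen against vehicle (-1.06 ± 0.39, limma adjusted p = 0.15), the second just past 2-fold and -0.89 without replicate 2 of estrogen and -0.93 without replicate 2 of vehicle. Its relatives Sox17 and Sox18 and the ETS factor Fli1 passed in no comparison by the brightest probe. A dimmer Sox17 probe passed on labelled day 7 with vehicle against db/db (-1.08) and with estrogen against vehicle (1.39).

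The wider list of 36 endothelial genes outside the 47 also had mostly lower means in the treated wounds of labelled day 14. With vehicle against db/db 33 of 36 had a lower mean (median -0.70) and 6 fell, beside 2.8% of all genes. The largest falls were those of Gja5 (-1.24), a gap junction gene of arteries, and Ptprb (-1.17), the endothelial receptor phosphatase. With estrogen against db/db 31 of 36 had a lower mean (median -0.50 beside 0.04 over all genes tested). Of these 36, 0 passed by limma, beside 4.12% of all genes, and 13 had an unadjusted p below 0.05. Compared with WT 3 rose in db/db, beside 2.79% of all genes. The largest rises were those of Gpihbp1 (1.47), which anchors lipoprotein lipase in capillaries, and Thbd (1.21), the thrombomodulin gene. In db/db against WT on labelled day 7, 4 of the 36 passed (11.1% beside 14.2% of all genes). With estrogen against db/db on that day 5 did (13.9% beside 10.9%), all 5 lower.

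Of the Notch and ephrin genes, Dll4, the Notch ligand of tip cells, fell with vehicle against db/db on labelled day 14. It was 0.0663 and 0.0753 in WT, 0.0961 and 0.105 in db/db, 0.0670 and 0.0520 with estrogen and 0.0484 and 0.0475 with vehicle, and the db/db arrays were the highest. The fall was -1.07 ± 0.28 (limma adjusted p = 0.11), and it was -0.97 with slide as a block, under 2-fold. Dll4 on labelled day 7 ranged from 0.0295 to 0.0933 and passed in no comparison.

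Efnb2, the ephrin ligand of arterial endothelium that keratinocytes and other cells also make, fell in db/db against WT on labelled day 7. It was 3.05 and 3.59 in WT and 1.36 and 1.26 in db/db, far apart (-1.34 ± 0.23, limma adjusted p = 0.0058). Notch1 was 1.89 and 1.14 in WT and 0.392 and 0.897 in db/db (-1.31 ± 0.57, limma adjusted p = 0.15), with -2.27 within the slide of the first replicates and -0.34 within that of the second. It did not pass with slide as a block or without replicate 1 of WT (-0.94) or of db/db (-0.71). A dimmer Notch1 probe passed in this comparison (-1.09). Notch1 on labelled day 14 was 0.270 and 1.01 in WT and 0.176 and 0.130 in db/db (-1.79 ± 0.57, limma adjusted p = 0.048). That fall leaned on WT replicate 2 and was -0.84 without it. It did not pass with slide as a block (-1.97), and the dimmer Notch1 probe did not pass there (-0.91). Notch4, the Notch receptor of endothelium, Jag1, a Notch ligand that epidermis shares, and Ephb4, the venous partner of Efnb2, passed in no comparison.

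Rgs5, a marker of pericytes, fell on labelled day 7 in db/db against WT and with vehicle against db/db. It was 2.17 and 3.54 in WT, 1.91 and 0.558 in db/db, 0.717 and 0.783 with estrogen and 0.415 and 0.449 with vehicle. WT was the highest and vehicle the lowest, and the db/db replicates lay far apart. The fall against WT was -1.43 ± 0.51 (limma adjusted p = 0.086), but it did not pass without WT replicate 2 (-1.07) or db/db replicate 2 (-0.54). The fall with vehicle was -1.26 ± 0.51 (limma adjusted p = 0.29), but it did not pass without db/db replicate 1 (-0.37) or without either vehicle array (-1.20 and -1.31).

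Mcam codes for an adhesion molecule of pericytes and endothelium. Its brighter probe was 17.5 and 13.4 in WT, 36.2 and 81.7 in db/db, 14.5 and 14.5 with estrogen and 49.8 and 49.3 with vehicle on labelled day 7. WT and estrogen were low, db/db and vehicle were high, and these did not overlap. It rose in db/db against WT (1.83 ± 0.43, limma adjusted p = 0.020) and fell with estrogen against db/db (-1.91 ± 0.43, limma adjusted p = 0.028) and against vehicle (-1.77 ± 0.43, limma adjusted p = 0.048). The other Mcam probe gave -0.38, -0.50 and 0.00 in these comparisons and passed in none, and on labelled day 14 it fell with estrogen against db/db (-1.13), where the brighter probe gave 0.35, so the 2 probes of this gene disagreed and the change of Mcam is uncertain.

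Pdgfrb, the receptor by which mural cells sense Pdgfb, and Cspg4, the NG2 proteoglycan of pericytes, passed in no comparison. Pdgfrb was 8.32 and 8.70 in db/db, 5.25 and 5.27 with estrogen and 5.04 and 4.61 with vehicle on labelled day 14, lower without overlap and under 2-fold (-0.69 ± 0.25 and -0.82 ± 0.26). In the wider list of 15 mural and smooth muscle genes, vehicle against db/db had 14 lower means on labelled day 14 (median -0.93). Of the 15, 5 fell, beside 2.8% of all genes, led by Abcc9 (-2.06), a potassium channel subunit of pericytes, and Vtn (-1.92). Kcnj8, the channel partner of Abcc9, fell with vehicle on both labelled days (-2.33 and -1.68) and with estrogen on both (-1.56 and -1.26). On labelled day 7 the nitric oxide receptor genes Gucy1a1 (2.20) and Gucy1b1 (2.02) rose with estrogen against vehicle, with 11 of the 15 genes higher.

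The lymphatic genes did not move as 1 group. On labelled day 7 with estrogen against db/db, Lyve1 and Flt4 rose and Pdpn fell. With vehicle against db/db Lyve1 rose on both labelled days.

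Lyve1 codes for a hyaluronan receptor of lymphatic endothelium that some macrophages also carry. It was 0.145 and 0.340 in WT, 0.282 and 0.129 in db/db, 0.4996 and 1.03 with estrogen and 0.893 and 0.472 with vehicle on labelled day 7. All 4 treated arrays were above the untreated ones, and the replicates of each group lay far apart. It rose with estrogen (1.91 ± 0.57, limma adjusted p = 0.077) and with vehicle (1.77 ± 0.57, limma adjusted p = 0.19) against db/db. On labelled day 14 it was 0.279 and 0.263 in WT, 0.361 and 0.437 in db/db, 0.540 and 1.06 with estrogen and 1.09 and 1.85 with vehicle. The vehicle arrays were the highest and rose against db/db (1.84 ± 0.57, limma adjusted p = 0.14), while this was 1.41 with slide as a block, which did not pass. None of the 3 rises of Lyve1 passed with every array left out: that with estrogen was 1.35 without replicate 2 of db/db and 1.39 without replicate 2 of estrogen, that with vehicle on labelled day 7 was 1.20 without replicate 2 of db/db and 1.31 without replicate 1 of vehicle, and that of labelled day 14 was 1.46 without replicate 2 of vehicle.

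Prox1, the transcription factor that fixes lymphatic identity, was near background. It was 0.00673 and 0.00305 in db/db, 0.0159 and 0.0104 with estrogen and 0.00472 and 0.00234 with vehicle on labelled day 7, well above background on both estrogen arrays and on replicate 1 of db/db. It entered these tests only through the estrogen arrays, where it was high, so passing is no support for a change. Against db/db, measured above background on 1 of 2 arrays, the log2 difference was 1.51 ± 0.52 (limma adjusted p = 0.12). Against vehicle, where it was not well above background on either array, it was at least 1.96-fold higher (limma adjusted p = 0.064), counted from the lowest signal well above background on each vehicle array. With normexp correction the log2 differences were 0.47 and 0.47 and did not pass, and the first did not pass without replicate 2 of db/db (0.94) or replicate 1 of estrogen (1.21).

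Flt4, the receptor of Vegfc on lymphatic endothelium, was 0.0267 and 0.0149 in db/db and 0.0464 and 0.0401 with estrogen on labelled day 7 (1.11 ± 0.39, limma adjusted p = 0.13). Its rise was 0.62 with normexp correction and 0.69 without replicate 2 of db/db, and it did not pass in either or without replicate 1 of estrogen. Pdpn codes for podoplanin, which keratinocytes and fibroblasts make as well as lymphatic vessels. It was 16.5 and 9.01 in WT, 26.3 and 16.4 in db/db, 6.15 and 6.95 with estrogen and 12.3 and 11.1 with vehicle on labelled day 7. The estrogen arrays were the lowest (-1.67 ± 0.30 against db/db, limma adjusted p = 0.0098). The dimmer Pdpn probe fell alike (-1.73), but it also passed in db/db against WT on labelled day 7 (2.05) and labelled day 14 (1.16), where the brighter probe gave 0.77 and -0.24, so the 2 probes disagreed there. Nrp2, a Vegfc coreceptor, passed in no comparison. Of the 8 wider lymphatic genes tested, 3 rose with estrogen against db/db on labelled day 7 and 1 fell, beside 5.61% and 5.32% of all genes. Nts fell from 1.06 and 0.149 to 0.0330 and 0.0324 (-3.60). Reln, which neither db/db array measured well above background and which was tested through the estrogen arrays, was at least 3.25-fold higher, so the count of 3 rests in part on that choice.

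**Figure D4:**
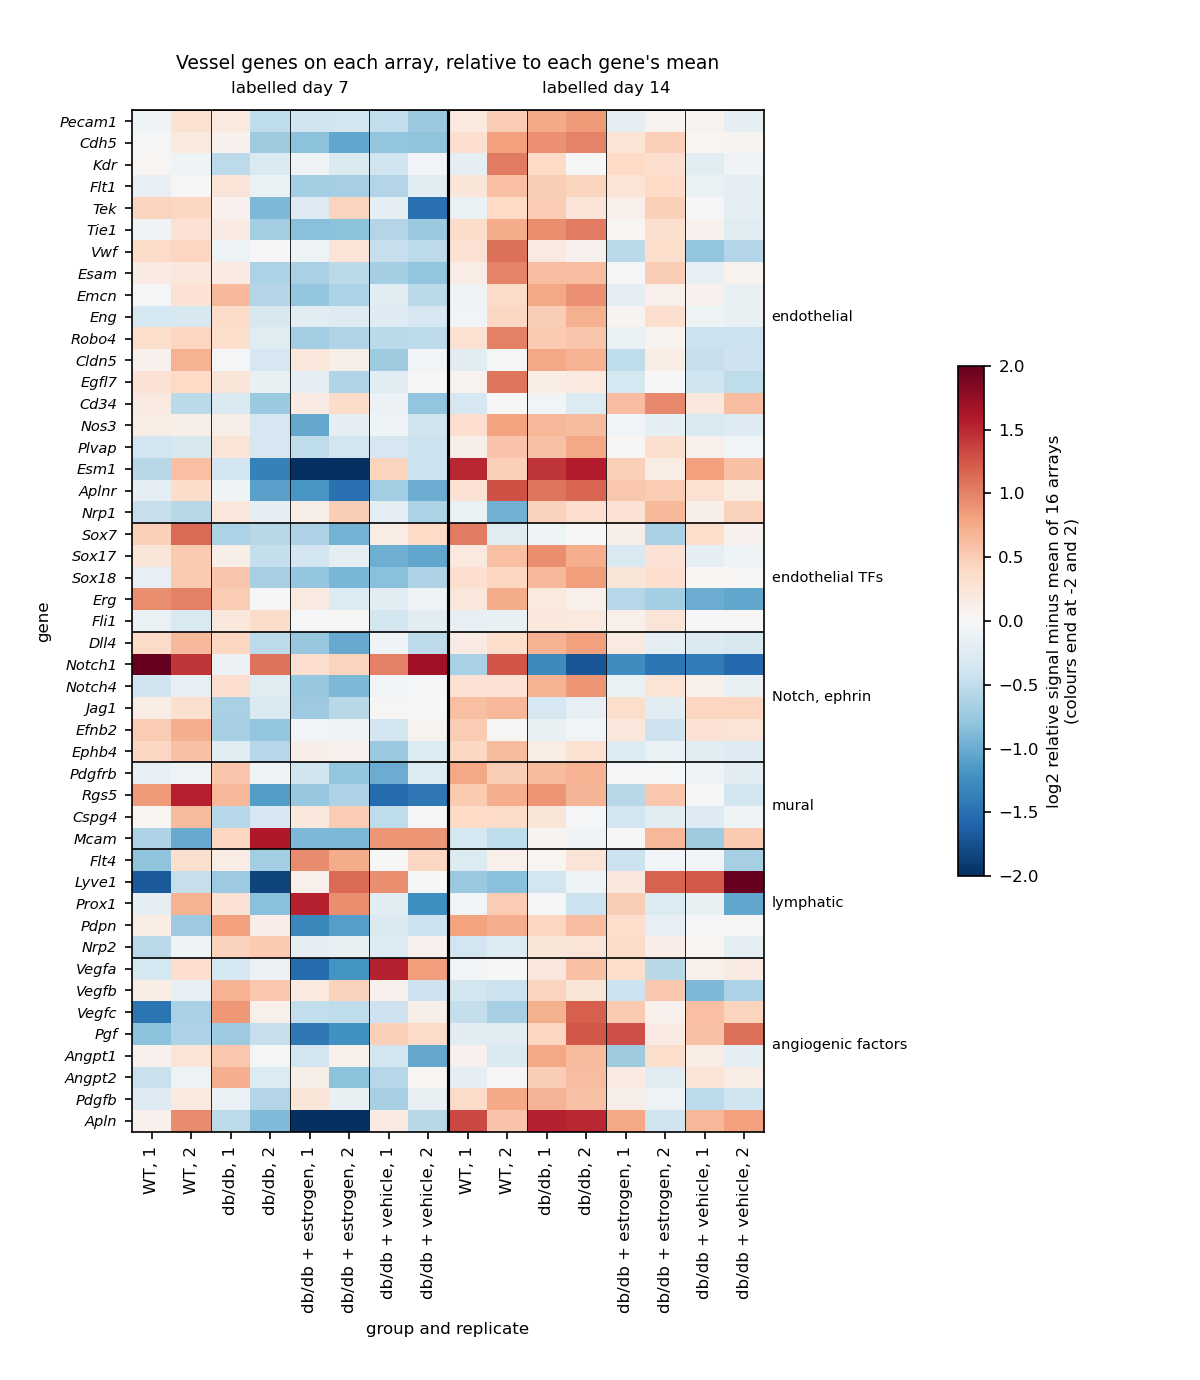
Log2 relative signal of each of the 47 genes (rows, grouped by role) on each of the 16 arrays (columns), with each gene's mean over all arrays taken off and the colours ending at -2 and 2. Most endothelial rows were redder on the db/db arrays of labelled day 14 (mean 0.57 and 0.56 over the 24 endothelial genes) than on the treated arrays beside them (-0.10 to 0.23).

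A further list held 28 pro- and anti-angiogenic signals outside the 47. In db/db against WT on labelled day 7, 5 rose and 3 fell, beside 6.3% and 7.92% of all genes. Angptl4, a lipid-regulated factor that hypoxia also induces, rose most, from 7.03 and 7.00 to 25.8 and 31.0 (2.01). On labelled day 14, 5 rose and 1 fell, beside 2.79% and 9.99%, with Angpt4 (1.57) and Adm (1.55), the adrenomedullin gene, the largest. Of the genes that rose, Adm (1.58), Angptl4 (0.83) and Thbs1 (0.94) did not pass with slide as a block. With estrogen against db/db on labelled day 7, 4 rose and 3 fell, beside 5.61% and 5.32%. The largest changes were those of Cxcr4 (-2.09), the chemokine receptor, and Timp3 (1.89), a protease inhibitor that blocks Vegf signalling. With estrogen against vehicle on that day 3 rose, led by Timp3 (2.48) and Angpt4 (2.11), and 2 fell, beside 4.98% and 4.62%. Timp3 was 18.6 and 18.6 with estrogen and between 3.09 and 7.26 on the other 14 arrays.

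Marker lists of other cells moved in the same comparisons. On labelled day 7, 7 of 8 neutrophil markers fell with estrogen against db/db and 5 of 8 against vehicle, beside 5.32% and 4.62% of all genes. Their summed relative signal was 50.1 and 64.8 with estrogen, 420 and 499 in db/db, 484 and 460 with vehicle and 350 to 392 in WT. The sums hide other changes of single markers. Of the 8, 5 rose in db/db against WT (median log2 change 3.62), beside 6.3% of all genes. With vehicle against db/db 4 of 8 fell (median -2.33), beside 2.51%. The mean log2 levels of the list were -0.9 and -0.5 in WT, 3.7 and 2.9 in db/db and -0.25 and 0.83 with vehicle. The estrogen arrays, lowest in Vegfa, Pgf, Apln and Esm1 on that day, were also the lowest in neutrophil signal. Red blood cell markers rose in db/db against WT on labelled day 7 (5 of 5 tested beside 6.3% of all genes, sums of 106 and 183 against 11.7 and 20.6). All 5 fell with estrogen and with vehicle, beside 5.32% and 2.51% of all genes. Macrophage markers rose in db/db against WT (5 of 7 on labelled day 7 and 3 of 7 on labelled day 14), beside 6.3% and 2.79% of all genes. Their sums were 113 to 189 in db/db and 54.0 to 106.8 in WT.

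Keratinocyte markers had mostly higher means where the endothelial means were lower in the treated groups against db/db, on both labelled days. In db/db against WT on labelled day 7 both were lower, with 10 of 10 keratinocyte means and 19 of 24 endothelial means below WT. For labelled day 14, 5 of 10 rose with vehicle and 2 with estrogen against db/db, beside 5.28% and 2.41% of all genes. In db/db against WT 4 fell, beside 9.99%. The sums were 325 and 486 in db/db, 618 and 554 with vehicle, 647 and 305 with estrogen and 640 and 369 in WT. Replicate 2 of estrogen was below both db/db arrays in these markers. Its mean log2 level over the 24 endothelial genes was 0.23, beside 0.57 and 0.56 in db/db. Pecam1, Cdh5 and Tie1 were lower on this array than on both db/db arrays, while Vwf, Cd34, Nrp1 and Fli1 were higher. None of the 8 fibroblast markers passed on labelled day 14. The summed skeletal muscle markers varied within groups, from 72.9 to 693 between the estrogen arrays of labelled day 14. The part of these other cells in the vessel results was not tested.

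**Figure D5:**
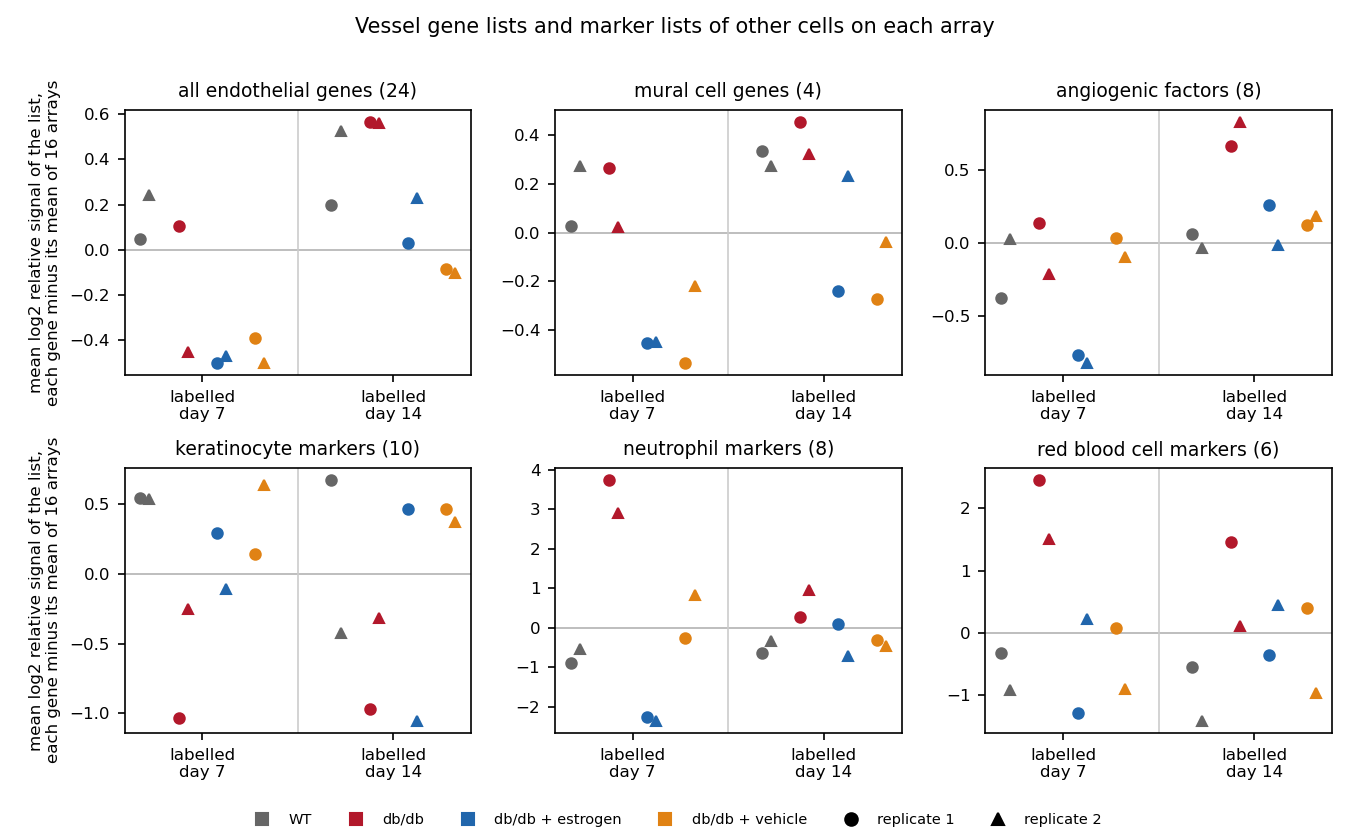
Mean log2 relative signal of 3 vessel gene lists (24 endothelial, 4 mural and 8 angiogenic factor genes) and 3 marker lists (10 keratinocyte, 8 neutrophil and 6 red blood cell genes) on each array, each gene set against its own mean over 16 arrays. On labelled day 14 the db/db arrays were the highest in endothelial genes (0.57 and 0.56), just above WT replicate 2 (0.53), with WT replicate 1 at 0.20. On labelled day 7 the estrogen arrays were the lowest in angiogenic factors (-0.76 and -0.82) and in neutrophil markers (-2.26 and -2.37).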

How the data were processed

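RNA of 16 wound samples was hybridised singly to Agilent 4 x 44K one-colour mouse arrays, 2 per group. The authors deposited scanner files with intensity values, background-subtracted and detrended by Feature Extraction, and a table whose values are the ratio of that intensity to the 75th percentile of its array, within 1% for at least 99.86% of 34643 probes per array. Levels here were recomputed as log2 processed signal minus the array's 75th percentile. Of 39429 probes, 27427 were named through RefSeq accessions, and each gene was read from its brightest probe.

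One limma 3.58.1 model (R 4.3.3, statmod 1.5.0) held all 16 arrays and 8 groups, with 8 residual degrees of freedom. Only probes that the extraction software marked as well above background in all samples of 1 or both groups entered a test. The samples are the labels' replicates, whose separate origin is not described further, so p-values measure the spread between these samples. Replicate 1 of every group of labelled day 7 lay on 1 slide and replicate 2 on another. On labelled day 14, both db/db arrays shared a slide with replicate 1 of each treated group, and both WT arrays shared one with replicate 2, so db/db and WT had no within-slide value there.

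The members and lists were chosen with earlier results of these data known. Array-by-array values were given for Pecam1, Vwf and Cdh5 and, per role and comparison, for up to 3 genes that passed with the largest log2 change, and up to 2 genes were named per wider list and comparison. Alternatives were the background correction, scaling, filter, probe choice, slide or replicate block, threshold, the deposited ratios, the arrays in the fit and leaving out each array. The scripts were tested on simulated data.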

Additional observations from a re-analysis of the deposited data

Results flagged for a closer look

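The change of a comparison from labelled day 7 to labelled day 14 was tested as an interaction in limma. Of the vessel genes, 19 such differences had an unadjusted p below 0.05 and were over 2-fold, and 0 passed after Benjamini-Hochberg adjustment over all genes. As the labelled days were scanned apart, the differences are of changes within a day.

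For db/db against WT, the log2 change of labelled day 14 minus that of labelled day 7 was 1.79 for Apln, 1.43 for Cldn5, 1.08 for Dll4, -1.01 for Pdpn and -1.40 for Mcam. For estrogen against db/db it was 2.25 for Mcam, 1.24 for Pdpn, -1.03 for Pdgfb, -1.23 for Cspg4, -1.27 for Cldn5 and -1.51 for Flt4. For vehicle against db/db it was -1.68 for Esm1, -1.68 for Vegfa and -1.05 for Pdgfb. For estrogen against vehicle it was 2.31 for Vegfa, 2.29 for Apln, 2.28 for Esm1, 2.21 for Mcam and 1.64 for Pgf. The Mcam values come from its brighter probe, with which the other probe disagreed.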

How the results depend on the processing

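No change of a vessel gene that passed turned its direction under any alternative run. These runs did not include reading a gene from its other probe alone. By that probe Mcam in db/db against WT on labelled day 7 was -0.38, beside 1.83 by the brighter probe. Over 57 results of vessel genes that passed, 770 recomputed values passed again and 159 did not. Of these 159, 73 came from leaving out 1 array, 43 from requiring an adjusted p, 13 from normexp correction, 12 from slide as a fixed block and 9 from the mean of all probes. Quantile scaling, no filter and the deposited ratios lost 0, although quantile scaling moved the median of all genes in db/db against WT on labelled day 14 from -0.04 to 0.09. In the order db/db against WT, estrogen against db/db, vehicle against db/db and estrogen against vehicle, the counts of genes that passed were 7, 8, 4 and 7 on labelled day 7 and 3, 2, 7 and 0 on labelled day 14.

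By an unadjusted p alone they were 15, 22, 15 and 16, then 11, 19, 22 and 2. By an adjusted p alone they were 5 for estrogen and 0 for vehicle against db/db on labelled day 7, then 5, 0 and 0 in the first 3 comparisons of labelled day 14. Slide as a fixed block gave 6 for db/db against WT on labelled day 14. With single arrays left out they were 6 to 11 (11 without db/db replicate 1), 7 to 16 (16 without db/db replicate 2), 3 to 10 (10 without db/db replicate 2) and 6 to 9 on labelled day 7. On labelled day 14 it gave 2 to 4, 1 to 5 (1 without db/db replicate 2 and 5 without estrogen replicate 2), 6 to 7 and 0 to 3 (3 without estrogen replicate 1 and 1 without vehicle replicate 2). A group left with 1 array was assumed to vary like the others.

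For the differences between labelled days the counts were 5, 6, 3 and 5. An adjusted p gave 0, 0, 0 and 0, and an unadjusted p alone gave 8 in db/db against WT, 7 in vehicle against db/db and 9 in estrogen against vehicle. In db/db against WT, the arrays of the groups compared, slide as a block and the mean of probes each gave 3. Leaving out 1 array gave 1 to 15 (labelled day 7: 9 and 1 without WT replicate 1 and 2, 15 and 3 without db/db replicate 1 and 2; labelled day 14: 3 without db/db replicate 2), 3 to 11 (3 and 11 without estrogen replicate 1 and 2 of labelled day 14), 1 to 12 (12 and 1 without db/db replicate 1 and 2 of labelled day 7, 1 without vehicle replicate 1 of labelled day 14) and 5 to 8 (8 without estrogen replicate 2 of labelled day 14). The causes were not tested.

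On labelled day 7 the replicate numbers followed the slides. Differences between replicates correlated from -0.45 to 0.39 between groups over both labelled days, without a common sign. With the replicate block the counts were 6, 8, 3 and 7, then 3, 2, 7 and 0. With 2 arrays a group, small changes could not be resolved.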
